A study of Mus musculus with 6 samples.

Results

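The genes described here are 10 growth factor and receptor genes, chosen by name: the fibroblast growth factor (FGF) ligands Fgf1, Fgf2 and Fgf7, the FGF homologous factor Fgf13, the FGF receptors Fgfr1, Fgfr2 and Fgfr3, the platelet-derived growth factor (PDGF) ligands Pdgfa and Pdgfb, and vascular endothelial growth factor A (Vegfa). All 10 were found among the 55357 genes of the deposited table. RNA was sequenced from primary cultures of mouse cortical astrocytes, prepared from embryos of C57BL/6 mice. In 3 cultures the cells were transfected with a plasmid that expresses FLAG-tagged BRAF KE (the K499E substitution, a gain-of-function allele of the kinase BRAF found in RASopathy patients) from the CMV promoter and were harvested 48 hours later (KE), and 3 cultures were nontransfected (NT). The NT group is given by titles and genotypes, whereas the treatment text of the labels is the same for all 6 samples and describes the transfection. The comparison asks how expression of BRAF KE changes gene expression in astrocytes. The CMV promoter is not specific to a cell type, and no culture with an empty plasmid or with wild-type BRAF is among these samples, so an effect of BRAF KE and an effect of transfection cannot be told apart. The culture medium of the study contained HB-EGF, a ligand of the EGF receptor, so the cultures were grown with a growth factor supplied from outside.

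FGFs bind FGF receptors together with heparan sulfate on the cell surface, and the receptors are tyrosine kinases that signal through FRS2, GRB2 and SOS to RAS, RAF, MEK and ERK. BRAF therefore acts downstream of these receptors, and Sprouty proteins, DUSP6 and the ETV transcription factors are known targets or brakes of the same pathway. In the brain, FGFR3 marks the astrocyte lineage, astrocytes make FGF2, and PDGF-A acts through PDGFRα on oligodendrocyte precursors. PDGF-B acts mainly through PDGFRβ on pericytes, and VEGF-A acts through KDR on endothelial cells, where FLT1 binds it as well.

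Values are normalized counts, that is, reads assigned to a gene divided by a size factor for each culture. They summed to between 30472429 and 30895529 per culture, and the spacing of low values put the depth at roughly 24500000 to 34200000 reads. Braf was at 34933 to 40978 in the KE cultures and at 811 to 946 in the NT cultures, which matched the labels. Markers of astrocytes were abundant in every culture (9 genes, 0.353% to 0.370% of all normalized counts in NT and 0.483% to 0.494% in KE). Microglia and macrophage markers were also present in NT (13 genes, 0.122% to 0.146%) and fell to 0.0108% to 0.0170% in KE, and all 13 fell in the test. All 8 tested markers of the oligodendrocyte lineage, Pdgfra among them, fell as well, although this count was 5 without KE replicate 1, KE replicate 3 or NT replicate 2, 6 without NT replicate 1, 7 without NT replicate 3 and 5 in limma without the variance trend. The 9 listed markers summed to 27147 to 31919 in KE and to 36023 to 36311 in NT. Most of this sum was Olig1 (means 20749 in KE and 23693 in NT, log2FC -0.20) and Olig2 (6094 and 8927, log2FC -0.55). The endothelial markers Cdh5, Cldn5, Tek, Tie1 and Emcn had means under 10. In cultures of mixed cells, fewer cells of a type and less RNA per cell cannot be told apart.

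Of the 10 genes, 9 had a mean of at least 10 normalized counts and were tested. Fgf1, Vegfa, Pdgfa, Fgfr1, Fgf2 and Fgfr2 rose in KE (6 of 9), Pdgfb and Fgfr3 fell (2 of 9), and Fgf13 did not pass an adjusted p of 0.05. In the same limma test over 15280 genes, 51.3% were called, 25.3% upward and 26.0% downward, so the 8 calls among 9 genes stand beside a high background. For 8 of the 9 genes, every KE culture lay on 1 side of every NT culture, which held for 59.9% of all tested genes. The median log2 fold change (log2FC) of the 9 genes was 0.33, and that of all tested genes was 0.00. Without regard to sign, the median change of the 9 was 0.34 against 0.30 for all tested genes, so the changes were not unusual in size.

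**Figure D1:**
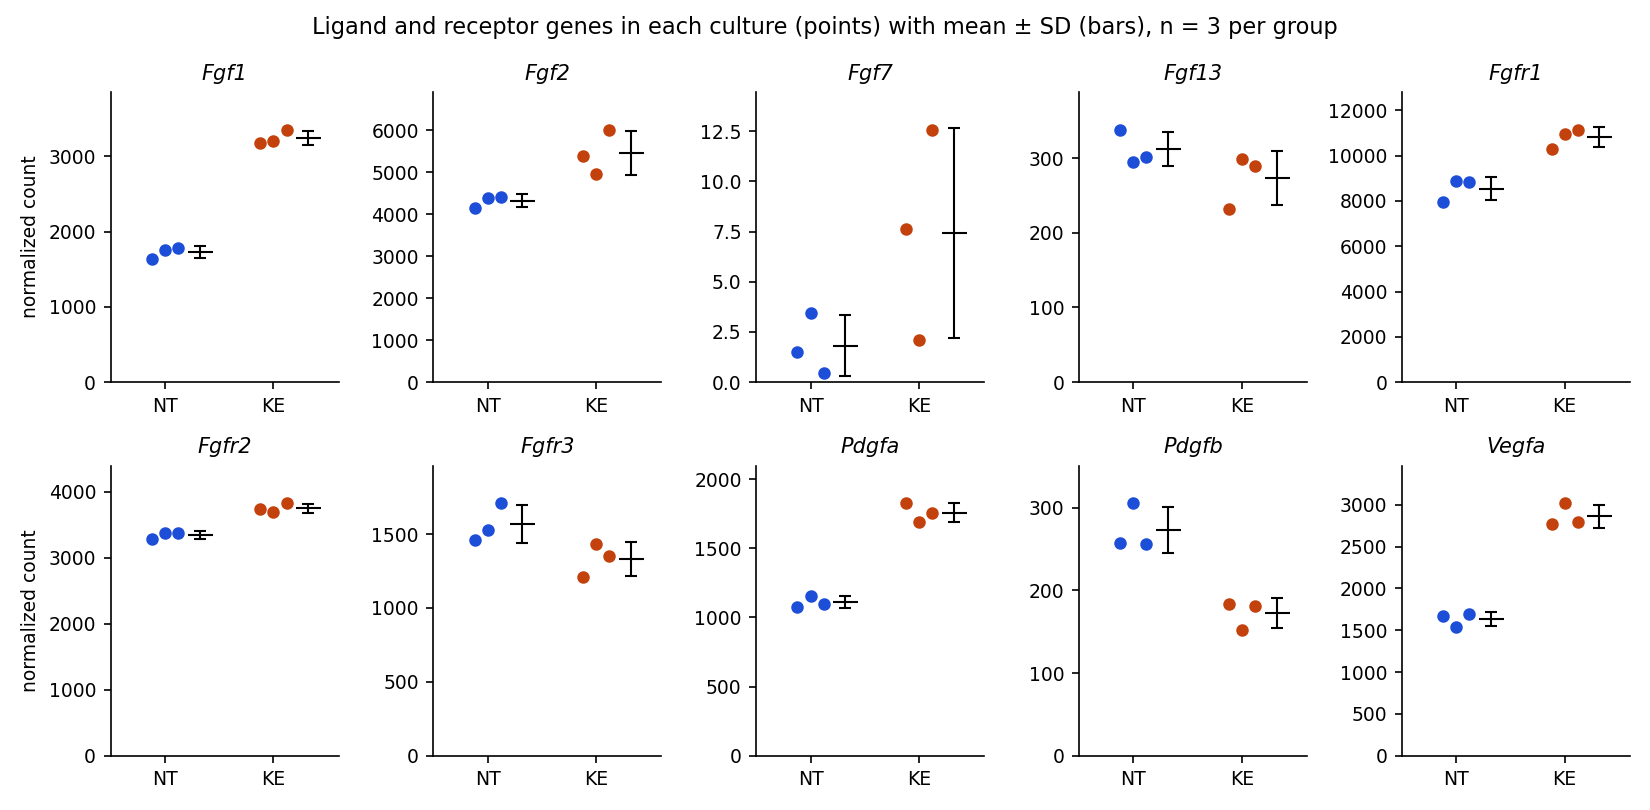
Normalized counts of the 10 genes in each culture (points) with group means, KE and NT side by side, one panel per gene. The 3 KE cultures lie above the 3 NT cultures for Fgf1, Fgf2, Fgfr1, Fgfr2, Pdgfa and Vegfa and under them for Fgfr3 and Pdgfb, while Fgf7 and Fgf13 overlap.

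Promoter sequence was available from RefSeq (GRCm38.p6, a different build from the GRCm39 gene coordinates) for 7 of the 10 genes, as the 250 bases before the most upstream start. Fgf1, Fgfr1 and Pdgfb had no entry. The windows of the 3 genes with the largest called rises among those with an entry (Vegfa, Pdgfa, Fgf2) and of Fgfr3, which fell, are shown so that their base composition and GC-box content can be compared. Each is written 5′ to 3′ on the strand of its gene. Capitals mark matches to GGGCGG (a GC box that Sp1 binds) or GCGNGGGCG (the EGR element), searched on both strands, so that CCGCCC and CGCCCNCGC are matches too.
Vegfa, chr17:46032378-46032627, minus strand: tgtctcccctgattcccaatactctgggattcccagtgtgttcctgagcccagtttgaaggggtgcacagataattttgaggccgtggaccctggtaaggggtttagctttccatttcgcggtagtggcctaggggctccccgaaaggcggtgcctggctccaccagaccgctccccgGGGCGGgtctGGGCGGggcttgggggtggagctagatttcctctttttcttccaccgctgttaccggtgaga
Pdgfa, chr5:138994945-138995194, minus strand: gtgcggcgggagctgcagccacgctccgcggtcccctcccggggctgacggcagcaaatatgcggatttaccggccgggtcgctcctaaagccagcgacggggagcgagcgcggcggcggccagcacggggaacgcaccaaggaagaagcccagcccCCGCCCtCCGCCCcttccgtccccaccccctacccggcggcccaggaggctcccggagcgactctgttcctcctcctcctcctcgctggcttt
Fgf2, chr3:37348403-37348652, plus strand: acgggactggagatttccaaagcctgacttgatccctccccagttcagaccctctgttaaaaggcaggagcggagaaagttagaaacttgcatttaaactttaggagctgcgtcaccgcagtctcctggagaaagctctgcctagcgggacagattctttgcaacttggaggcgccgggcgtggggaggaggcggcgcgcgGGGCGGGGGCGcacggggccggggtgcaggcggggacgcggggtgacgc
Fgfr3, chr5:33721474-33721723, plus strand: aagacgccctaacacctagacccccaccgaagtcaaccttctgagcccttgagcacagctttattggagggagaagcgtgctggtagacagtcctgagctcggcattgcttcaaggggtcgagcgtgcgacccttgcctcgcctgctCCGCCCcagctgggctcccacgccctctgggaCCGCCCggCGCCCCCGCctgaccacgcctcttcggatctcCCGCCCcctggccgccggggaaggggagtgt

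Pdgfa had the highest GC content of these windows (72.4%), followed by Fgfr3 (66.8%), Fgf2 (62.4%) and Vegfa (59.2%), against a median of 52.4% over 32851 windows. GGGCGG matched 2 times in Vegfa, 2 times in Pdgfa, 3 times in Fgfr3 and 1 time in Fgf2, and 32.7% of all windows held it. The EGR element matched 1 time in Fgf2, where it overlaps the GC box, and 1 time in Fgfr3, and 4.7% of all windows held it. The windows of Fgfr2 (44% GC), Fgf7 (43.6%) and Fgf13 (45.6%) had no match. None of the 7 windows held TGANTCA (AP-1, in 6.75% of all windows), TGACGTCA (CRE, 1.55%), CCGGAAG (ETS, 6.91%) or ACGTG (a form of the hypoxia-inducible factor core, 16.6%). Another form of that core, GCGTG, was not searched. It can be read on either strand in the printed windows of Fgf2, Fgfr3 and Pdgfa, so these windows are not free of the core.

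Of the 3 secreted FGF ligands with enough signal to be tested, Fgf1 had the largest change with all cultures kept. Without KE replicate 2 or NT replicate 1, Fgf18, which was not called, had a larger log2FC than Fgf1. Fgf1 (acidic FGF, which binds every FGF receptor; ENSMUSG00000036585, GRCm39 chr18:38971717-39077186, minus strand) was at 3174, 3203 and 3354 in the KE cultures and at 1638, 1759 and 1786 in the NT cultures. The lowest KE culture was well above the highest NT culture. The means were 3244 ± 96.5 and 1728 ± 79.0 (SD, n = 3 each), a 1.88-fold difference in level. The log2FC was 0.91 (SE 0.06, 95% interval 0.78 to 1.04, limma adjusted p = 4.4e-07), and 5.97% of the tested genes rose by more.

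Fgf2 (basic FGF, the main FGF of astrocytes; ENSMUSG00000037225, chr3:37402473-37464257, plus strand) rose less. It was at 5401, 4961 and 6014 in KE and at 4147, 4398 and 4420 in NT, with means of 5459 ± 529 and 4322 ± 151. The groups did not overlap, but the KE cultures were spread more widely than the NT cultures. The log2FC was 0.33 (SE 0.07, 95% interval 0.18 to 0.49, limma adjusted p = 0.00258). Exons of Fgf2 share 3073 bases with Nudt6, a gene on the opposite strand, and 255 bases with the noncoding gene Gm43439 on the same strand. Nudt6 itself had a mean of 82.9 in KE and 68.1 in NT (log2FC 0.28, limma adjusted p = 0.189). It was called higher only in limma without the variance trend (adjusted p = 0.0415). The library kit keeps the strand, but the strand setting of the counting is not given in the sources used here.

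Because Fgf1 rose more than Fgf2, their balance shifted. The log2 ratio of Fgf1 to Fgf2 was -0.77, -0.63 and -0.84 in KE and -1.34, -1.32 and -1.31 in NT. Every KE culture was above every NT culture, and the difference was 0.58 with a two-sided exact permutation p = 0.1, which is the smallest p that 3 against 3 cultures allow.

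Fgf7 (keratinocyte growth factor, which binds the epithelial splice form of FGFR2; ENSMUSG00000027208, chr2:125876578-125934218, plus strand) was close to the detection limit. Its normalized counts were 7.65, 2.10 and 12.6 in KE and 1.50, 3.46 and 0.481 in NT, and the groups overlapped. Its mean was under 10 and it was not tested. When no filter on low values was applied, its log2FC was 1.49 (SE 0.63, limma adjusted p = 0.0898). The list of 18 secreted FGF ligands had 3 tested genes, Fgf1, Fgf2 and Fgf18, and only the first pair was called. With no filter on low values, 14 ligands could be tested and 3 were called higher, the added one being Fgf22 (4.86, 7.73 and 9.54 in KE and 1.24, 4.22 and 0.513 in NT, log2FC 1.64, limma adjusted p = 0.0373). Fgf18 had means of 16.8 and 10.1 (log2FC 0.66, limma adjusted p = 0.211). Fgf4, Fgf6, Fgf8 and Fgf20 were at 0 in all 6 cultures.

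Fgf13 belongs to the FGF homologous factors, which stay inside the cell, do not activate FGF receptors and bind voltage-gated sodium channels (ENSMUSG00000031137, chrX:58106279-58613431, minus strand). It was at 231, 298 and 289 in KE and at 338, 295 and 302 in NT. The groups overlapped, since KE replicate 2 was above NT replicate 2. The log2FC was -0.20 (95% interval -0.47 to 0.07, limma adjusted p = 0.204), and this interval includes 0. Over the alternatives the log2FC ran from -0.27 without KE replicate 2 to -0.08 without KE replicate 1. None of the 4 FGF homologous factors was called by limma, and 0 of 4 had an unadjusted p under 0.05. Fgf11, which had the lowest log2FC of the 4 (-0.35), had means of 87.9 and 112 and was called only when KE replicate 3 was left out (adjusted p = 0.0474).

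**Figure D2:**
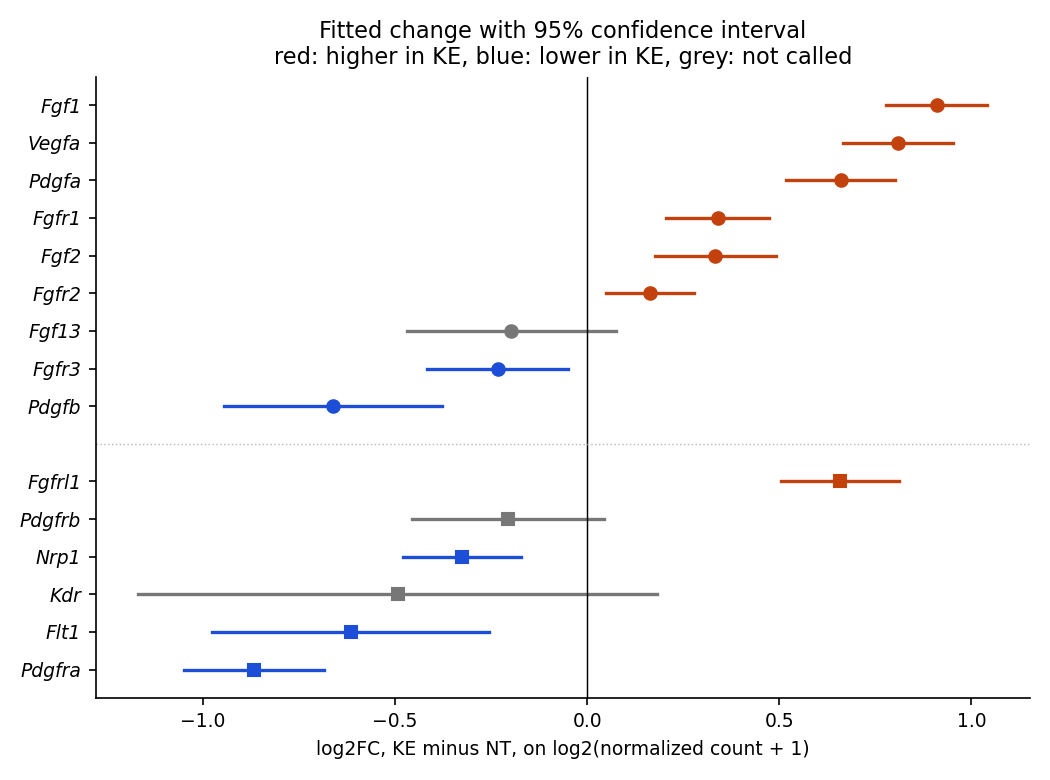
Log2FC (KE minus NT) of the 9 tested genes (circles) with 95% intervals from limma. Squares under the dotted line show Fgfrl1, Pdgfra, Pdgfrb, Flt1, Kdr and Nrp1. Among the 9 genes the estimates run from -0.66 for Pdgfb to 0.91 for Fgf1, and the interval of Fgf13 alone includes 0. Among the squares, the lowest estimate is that of Pdgfra (-0.87), and the intervals of Pdgfrb and Kdr include 0.

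The FGF receptors did not move in one direction. Fgfr1 (the kinase receptor with the highest level per kilobase here; ENSMUSG00000031565, chr8:26003670-26066824, plus strand) was at 10309, 10973 and 11141 in KE and at 7966, 8866 and 8817 in NT, with no overlap. The means were 10808 ± 440 and 8549 ± 506, and the log2FC was 0.34 (SE 0.06, 95% interval 0.20 to 0.47, limma adjusted p = 0.000813). Fgfr1 shares 125 exonic bases with the noncoding gene Gm16159 on the opposite strand.

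Fgfr2 (ENSMUSG00000030849, chr7, canonical transcript at 129763471 to 129868272, minus strand) rose by the smallest amount of the 6 genes that rose. It was at 3732, 3687 and 3824 in KE and at 3283, 3377 and 3377 in NT. Replicates were tight and did not overlap, with a log2FC of 0.16 (SE 0.05, 95% interval 0.05 to 0.28, limma adjusted p = 0.0217). The call was lost without KE replicate 1 (limma adjusted p = 0.0534), KE replicate 3 (0.058), NT replicate 1 (0.0671) or NT replicate 3 (0.0503). Its annotated exons share 314 bases with Ctbp2 on the same strand, whose log2FC was -0.06 (limma adjusted p = 0.39).

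Fgfr3 (ENSMUSG00000054252, chr5:33879018-33894412, plus strand), the receptor that marks the astrocyte lineage, moved the other way. It was at 1210, 1433 and 1353 in KE and at 1459, 1528 and 1708 in NT. The groups did not overlap, but KE replicate 2 and NT replicate 1 were close to each other. The log2FC was -0.23 (SE 0.08, 95% interval -0.42 to -0.05, limma adjusted p = 0.0365). This call was lost without KE replicate 1 (limma adjusted p = 0.147), KE replicate 3 (0.0645), NT replicate 2 (0.0576) or NT replicate 3 (0.142), and when the variance trend was left out of limma (0.0928). Of 9 astrocyte markers, 6 rose, 1 fell (Gja1, a gap junction protein, log2FC -0.46, limma adjusted p = 0.000139) and 2 were not called (Aqp4, log2FC 0.02, and S100b, log2FC -0.60). Under quantile normalization 5 rose, since Slc1a3 lost its call (log2FC 0.25 in the main test and 0.09 there, limma adjusted p = 0.209). Exons of Fgfr3 share 1157 bases with G630022F23Rik on the opposite strand, which had means of 12.5 in KE and 9.25 in NT (log2FC 0.46, limma adjusted p = 0.54).

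The remaining receptors differed widely in level. Fgfr4 was at 0.904, 0 and 0 in KE and at 3.96, 1.04 and 0.953 in NT and was not tested. Fgfrl1, a receptor that binds FGFs but has no kinase domain, was at 12252, 13781 and 12009 in KE and at 7446, 8276 and 8364 in NT. It rose by a log2FC of 0.66 (SE 0.07, limma adjusted p = 1.7e-05), which was the largest change among the 4 tested FGF receptors. Of these 4, 3 rose and 1 fell.

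To compare the receptors with each other, normalized counts were divided by the merged exon length of each gene, and each receptor was expressed as a percentage of the sum of Fgfr1 to Fgfr4. Fgfr1 made up 63.4%, 63.8% and 64.0% of this sum in KE and 57.8%, 59.6% and 58.4% in NT. Fgfr3 made up 10.8%, 12.1% and 11.3% in KE and 15.3%, 14.9% and 16.4% in NT. Neither receptor's KE and NT percentages overlapped. The share of Fgfr1 was 63.7% ± 0.32 in KE and 58.6% ± 0.906 in NT (SD, n = 3 each), a difference of 5.14 percentage points, and the share of Fgfr3 differed by -4.16 points (KE minus NT), each with a two-sided exact permutation p = 0.1. The share of Fgfr2, 24.9% in KE and 25.9% in NT, overlapped between groups (exact permutation p = 0.3). The direction for Fgfr1 depended on what was summed. With Fgfrl1 added to the sum, a choice made after seeing the data, the share of Fgfr1 was lower in KE (KE minus NT, -2.25 points).

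**Figure D3:**
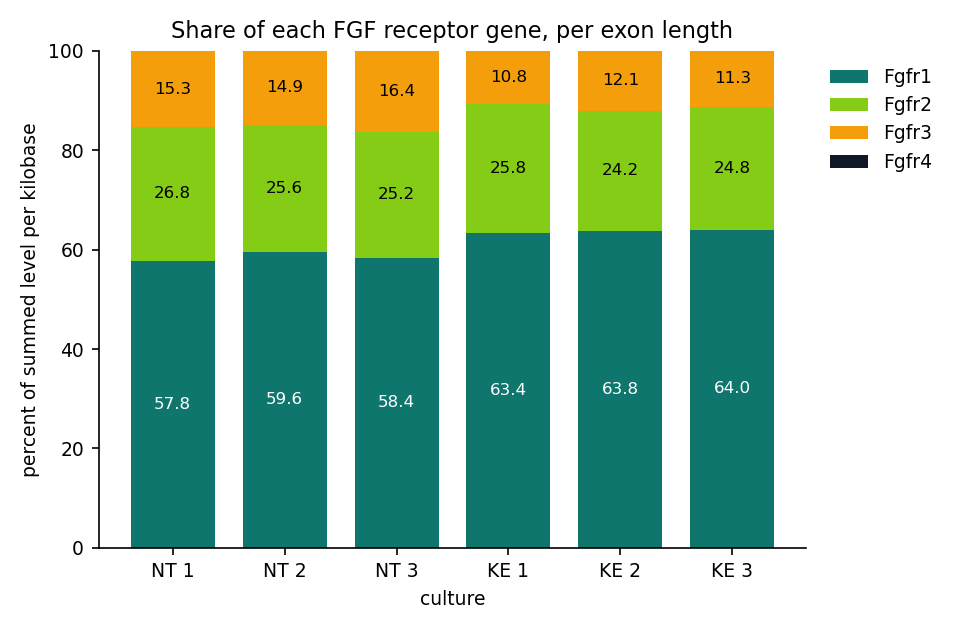
Percentage of the summed per-kilobase level of Fgfr1 to Fgfr4 taken by each receptor, for each culture. Fgfr1 takes 63.4% to 64.0% in KE and 57.8% to 59.6% in NT, Fgfr3 takes 10.8% to 12.1% and 14.9% to 16.4%, and Fgfr4 takes at most 0.083% in any culture.

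The PDGF ligands moved in opposite directions. Pdgfa (ENSMUSG00000025856, chr5:138961758-138983435, minus strand) was at 1826, 1690 and 1756 in KE and at 1078, 1156 and 1100.2 in NT. All KE cultures were above all NT cultures, with means of 1757 ± 68.0 and 1112 ± 40.3. The log2FC was 0.66 (SE 0.06, 95% interval 0.52 to 0.80, limma adjusted p = 8.9e-06). Its promoter window, printed above, was the richest in GC of the 4 shown. Its exons share 2552 bases with 6330403L08Rik, a noncoding gene on the opposite strand that was at 389, 347 and 403 in KE and at 239, 257 and 258 in NT (log2FC 0.59, limma adjusted p = 0.000664). Whether reads were split between these genes was not tested.

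Pdgfb (ENSMUSG00000000489, chr15:79880009-79899181, minus strand) was at 184, 152 and 181 in KE and at 258, 305 and 256 in NT. The groups did not overlap, and the log2FC was -0.66 (SE 0.13, 95% interval -0.95 to -0.38, limma adjusted p = 0.00139). Endothelial cells and macrophages are known sources of PDGF-B. Beside its fall, the microglia and macrophage markers had a median log2FC of -3.33, and the 8 endothelial markers summed to 243 to 304 in KE and to 339 to 497 in NT. Most of the endothelial sum was Flt1. The other 7 summed to 42.6 to 58.1 in KE and 66.2 to 69.9 in NT, and 3 of them had a higher mean in KE and 4 a lower one. The part of these cells in the fall of Pdgfb was not tested. The log2 ratio of Pdgfa to Pdgfb was 3.30, 3.47 and 3.27 in KE and 2.06, 1.92 and 2.10 in NT. This difference of 1.32 had no overlap between groups and an exact permutation p = 0.1.

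Of the receptors for these ligands, Pdgfra (which binds PDGF-A and marks oligodendrocyte precursors) was at 904, 1049 and 961 in KE and at 1938, 1637 and 1744 in NT. It fell by 0.87 on the log2 scale (SE 0.08, limma adjusted p = 7.4e-06), in the opposite direction to Pdgfa. Pdgfra is itself in the oligodendrocyte lineage list and in a list of fibroblast markers. The other 7 tested genes of the oligodendrocyte lineage list had a median log2FC of -0.55. Of the 7 fibroblast markers, Pdgfra included, 2 rose and 3 fell, and over the alternatives 0 to 2 rose and 2 to 3 fell. The part of either cell type in the fall of Pdgfra was not tested. Pdgfrb had means of 390 in KE and 453 in NT (log2FC -0.21, limma adjusted p = 0.152) and was called lower only without NT replicate 1 (adjusted p = 0.0272). In the list of 7 PDGF ligands and receptors, 1 gene rose, 2 fell and 4 were not called. The median log2FC was -0.15, but -0.05 without NT replicate 3, -0.08 without KE replicate 3, -0.07 under quantile normalization, and -0.23 without NT replicate 1 or KE replicate 2.

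Vegfa, the chief angiogenic factor released by astrocytes (ENSMUSG00000023951, chr17:46327919-46343309, minus strand), was at 2773, 3019 and 2798 in KE and at 1668, 1537 and 1701 in NT. The lowest KE culture was above the highest NT culture by a wide margin, and the ratio of the means was 1.75. The log2FC was 0.81 (SE 0.06, 95% interval 0.67 to 0.95, limma adjusted p = 2e-06). Exons of Vegfa share 64 bases with the noncoding gene Gm65021 on the opposite strand. Of the 4 other tested VEGF family ligands, a pair rose. Pgf (placental growth factor) and Vegfc (a lymphatic growth factor) each had a log2FC of 0.80, with limma adjusted p = 0.000524 and 0.00583. Vegfb, the most abundant of the others, had means of 985 and 1003 (log2FC -0.03, limma adjusted p = 0.776), and Vegfd had means of 12.5 and 16.3 (log2FC -0.34, limma adjusted p = 0.479).

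No VEGF receptor was called higher. Flt1 fell by 0.62 on the log2 scale (means 217 and 337, limma adjusted p = 0.00881), and Nrp1, a coreceptor, fell by 0.33 (means 1115 and 1398, limma adjusted p = 0.00239). Kdr and Flt4 were barely present. Kdr had means of 18.0 and 25.1 (log2FC -0.49, limma adjusted p = 0.201). Flt4, the receptor of VEGF-C, had means of 17.4 in KE and 8.55 in NT without overlap (log2FC 0.93, limma adjusted p = 0.0783). Nrp2 was at 210, 254 and 211 in KE and at 2414, 2581 and 2051 in NT (log2FC -3.38, limma adjusted p = 4.6e-09), a fall close in size to the median of the microglia and macrophage markers, and a link between them was not tested. In the list of 10 VEGF ligands and receptors, 3 rose, 3 fell and 4 were not called.

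Vegfa is a known target of hypoxia-inducible factors, so 15 tested genes of a hypoxia list were set beside it. Of these, 6 rose, 7 fell and 2 were not called. Over the alternatives 5 to 7 rose and 5 to 7 fell, and the sign of the median log2FC (0.02) turned in some. It was -0.01 without NT replicate 2. The median was -0.12 without KE replicate 2, -0.15 without KE replicate 3 and -0.15 with no filter on low values. In these last settings Ankrd37 was tested too, so the median is over 16 genes. Vldlr (a lipoprotein receptor) rose by 1.20, whereas Pfkfb4 (a regulator of glycolysis), Adm (the vasodilator peptide adrenomedullin) and Egln1 (the prolyl hydroxylase that marks HIF for degradation) had log2FC values of -0.62, -0.61 and -0.56. The part of hypoxia in the rise of Vegfa was not tested.

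**Figure D4:**
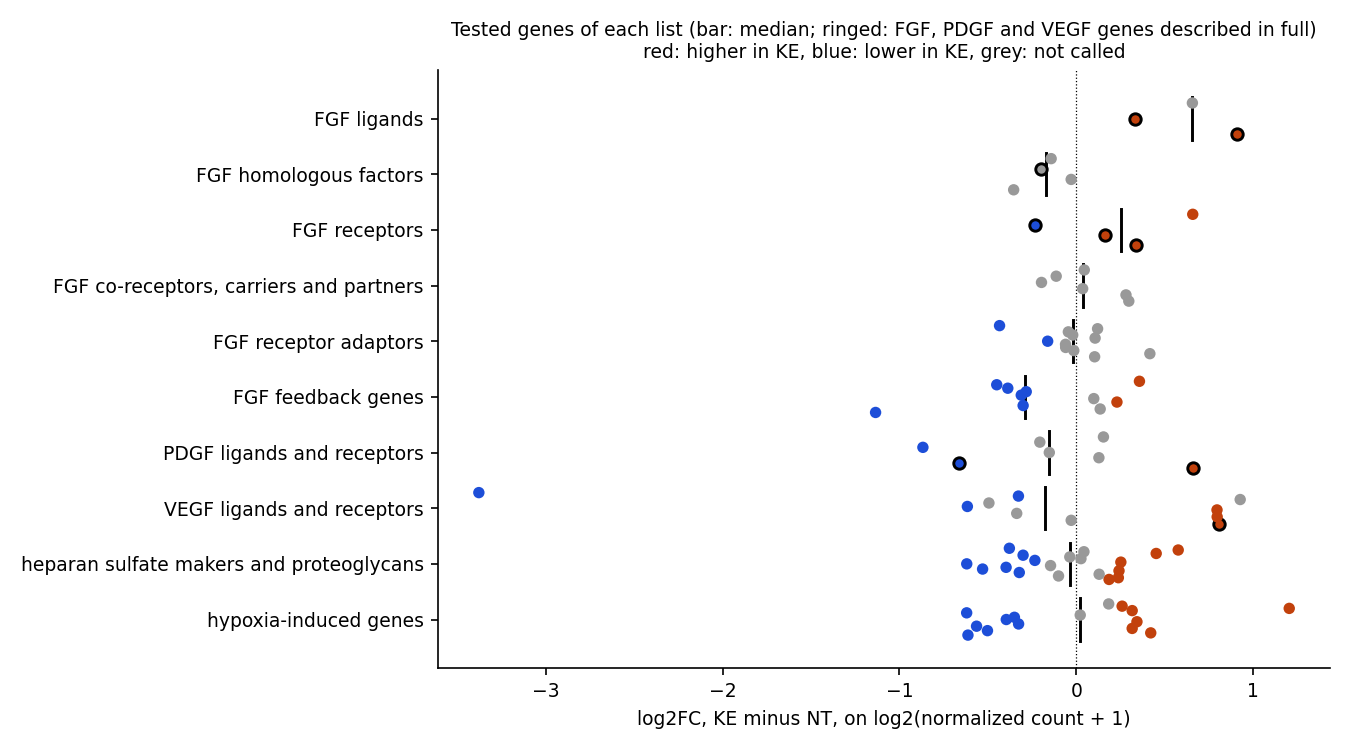
Log2FC of each tested gene in the lists around FGF, PDGF and VEGF signaling, with the median of each list. The lists spread to both sides of 0, with medians from -0.29 for the feedback genes to 0.66 for the FGF ligands, of which 3 were tested.

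Among 10 targets and feedback inhibitors of the FGF pathway, 6 fell, 2 rose and 2 were not called (median log2FC -0.29). Spry1, a Sprouty inhibitor of receptor tyrosine kinase signaling, fell by 1.13, and the ETS factors Etv4 and Etv1 fell by 0.45 and 0.39, whereas Etv5 of the same family rose by 0.36. The other gene that rose, Spred1 (log2FC 0.23, limma adjusted p = 0.0239), lost its call without KE replicate 1 (0.0552), KE replicate 3 (0.0869) or NT replicate 2 (0.0946) and in limma without the variance trend (0.0864). Of the 11 genes listed as FGF receptor adaptors, Cbl (a ubiquitin ligase for active receptors) fell by 0.43 and Gab1 (a docking protein) by 0.16, and 9 were not called. The call for Gab1 was lost without any 1 of 5 cultures, the exception being KE replicate 2, with limma adjusted p between 0.055 and 0.112 without KE replicate 1 (0.112), KE replicate 3 (0.059), NT replicate 1 (0.055), NT replicate 2 (0.0877) or NT replicate 3 (0.107), and also with no filter on low values (0.0627) and in limma without the variance trend (0.0524). Among 6 tested FGF coreceptors, carriers and partners, 0 were called by limma and 1 had an unadjusted p under 0.05. Fgfbp3 of this list was called higher under quantile normalization (limma adjusted p = 0.0466) and without NT replicate 3 (0.0389), as was Frs3 of the adaptors under quantile normalization (0.0265) and without KE replicate 3 (0.0499).

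Heparan sulfate, which FGFs need to bind their receptors, is carried by syndecans and glypicans and trimmed by sulfatases. Of 19 genes that make, carry or edit it, 6 rose, 7 fell and 6 were not called. Over the alternatives 4 to 6 rose and 5 to 7 fell, and the median log2FC (-0.04) ran from -0.10 without NT replicate 1 to 0.03 without NT replicate 2. The syndecans Sdc4 and Sdc2 rose by 0.58 and 0.45. Sulf1, an extracellular sulfatase that removes 6-O sulfate from heparan sulfate, fell by 0.62. Hs6st2, which adds sulfate to the 6-O position, had a log2FC of -0.53 (limma adjusted p = 0.0207). Its call was lost without KE replicate 1 (0.0517), KE replicate 2 (0.0794), NT replicate 1 (0.0688) or NT replicate 3 (0.0765) and in limma without the variance trend (0.0725). The related genes Sulf2 and Hs6st1, with higher normalized counts, rose by 0.25 and 0.24 (limma adjusted p = 0.00501 and 0.00252). Over all 80 tested genes of these lists other than the 10 genes themselves, 17 rose (21.2%), 26 fell (32.5%) and 37 were not called, with a median log2FC of -0.03. Together 53.8% were called, close to the 51.3% of all tested genes, and the counts of the single lists are to be read against the same background.

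Divided by merged exon length, the levels of the 10 genes spanned a wide range. In NT the order of the mean level, in normalized counts per kilobase, was Fgfr1 (669), Fgf2 (632), Vegfa (380.4), Fgfr2 (295), Fgf1 (204), Fgfr3 (177), Pdgfa (164), Pdgfb (64.3), Fgf13 (44.9) and Fgf7 (0.413). The ranges of Fgfr1 and Fgf2 overlapped, as did those of Fgf1 and Fgfr3 and those of Fgfr3 and Pdgfa. In KE the order was Fgfr1 (846), Fgf2 (798), Vegfa (666), Fgf1 (383), Fgfr2 (331), Pdgfa (259.9), Fgfr3 (151), Pdgfb (40.6), Fgf13 (39.3) and Fgf7 (1.69). Fgf1 stood above Fgfr2 and Pdgfa above Fgfr3 in every KE culture, whereas Fgfr2 was above Fgf1 in NT. In KE the ranges overlapped for Fgfr1 and Fgf2 and for Pdgfb and Fgf13. With the length of the longest transcript, Fgfr1 was clear of Fgf2 (1759 and 865 in KE), so that some neighboring places depended on the length used, but the exchange of Fgf1 and Fgfr2 was seen with merged exons, the longest transcript and the canonical transcript.

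**Figure D5:**
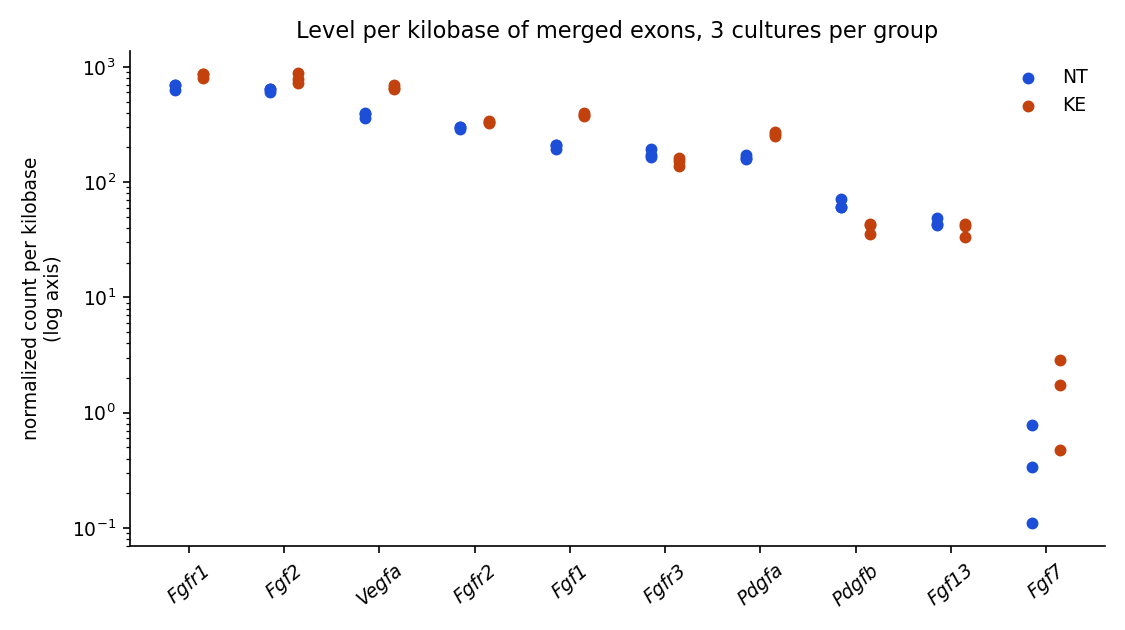
Normalized counts per kilobase of merged exons for the 10 genes on a log axis, with each culture as a point. Fgfr1, Fgf2 and Vegfa are at the top in both groups, and Fgf1 stands above Fgfr2 in KE and under it in NT.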

How the data were processed

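Per the study's methods and the labels, RNA libraries (TruSeq stranded mRNA) from 3 KE and 3 NT cultures were trimmed with Trim Galore, aligned with STAR and quantified with Salmon, and the authors scaled gene counts with DESeq2. The deposited values are this normalized signal per gene (gene counts divided by size factors). The processing notes name GRCh38, whereas the methods give GRCm39 for mouse and the gene IDs are mouse. The low values did not resolve into whole reads (74.8% to 77.6% lay within 0.1 of a whole multiple), so a count test was not used. Coordinates and lengths came from Gencode M39 on GRCm39, where 54749 of 55357 IDs were found.

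KE was compared with NT in limma 3.58.1 (R 4.3.3, variance trend, Benjamini-Hochberg adjustment, threshold 0.05) on log2(value + 1), for genes whose mean normalized value reached 10, so fold changes of low genes are understated. Percentages and log ratios were compared by two-sided exact permutation (Python 3.11.15, scipy 1.17.1). The fit was tested on simulated data, for which no result is given here. The labels do not say whether cultures were separate preparations. The limma p-values weigh each difference against the spread between these cultures, and they need not hold for new preparations. The lowest correlation within a group was 0.989. The labels do not say whether replicate numbers pair the cultures, and the main test did not use them as pairs. The study's methods describe an adjustment for batches, which the main test did not include. The alternatives were other pseudocounts, filters, scalings, lengths and variance models, a replicate block and leaving out each culture. The 10 genes and all lists were chosen with earlier results of these data known. The text names Braf, the 10 genes, their receptors and overlapping genes, and up to 4 called genes per list by size of change (mean of at least 100). Fgf18, Fgf11, Vegfb, Vegfc, Vegfd, Flt4, Spred1, Fgf22, Fgfbp3, Frs3, Sulf2, Hs6st1, the 4 FGF ligands at 0 and the marker genes were named outside this rule, after their values were seen.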

Additional observations from a re-analysis of the deposited data

How the results depend on the processing

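The direction of all 9 tested genes held in 126 comparisons with an alternative, and 117 also kept their side of the threshold. The other 9 concern Fgfr2 and Fgfr3, whose calls are thus the least secure of the set. The adjusted p of Fgf1 ranged from 3.8e-08 to 0.000258, that of Vegfa from 2.5e-07 to 0.000487, that of Pdgfa from 2.3e-06 to 0.000628, that of Fgfr1 from 0.000437 to 0.0111, that of Pdgfb from 0.00117 to 0.00727, that of Fgf2 from 0.00103 to 0.0234, and that of Fgf13 from 0.131 to 0.604 (limma). Genes that rose numbered 6 under every alternative with all cultures and 5 to 6 when 1 culture was left out. Genes that fell numbered 2, except 1 for limma without the variance trend and 1 to 2 when 1 culture was left out. With the replicate number as a block, 6 rose and 2 fell as before, and 8046 genes were called in place of 7844. Cultures of the same number correlated at 0.0589 to 0.0664 in their deviations from the group means, and each correlated best with its own number. These correlations are weak, so whether the numbers pair the cultures was not settled. The share of Fgfr1 in the receptor sum reversed to -2.25 points when Fgfrl1, added after seeing the data, entered the sum, because Fgfrl1 rose more than Fgfr1. Levels per kilobase move with the length used by construction. With 3 cultures a group, exact permutation tests cannot fall under 0.1, and the depth does not resolve Fgf7 or Fgfr4.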
